A study of Rattus norvegicus with 10 samples.

Results

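The genes described here are the muscarinic acetylcholine receptors Chrm1, Chrm2 and Chrm3 and acetylcholinesterase, Ache. They are 4 of the 4736 genes named on the array and were chosen by gene symbol in its platform annotation, which gave 9 of 8740 probe sets: 2 for each receptor and 3 for Ache. RNA from 10 rat lacrimal glands, the main source of the watery part of tears, was hybridised to Affymetrix rat arrays with 1 array for each gland. The 5 denervated glands were taken 7 days after the greater superficial petrosal nerve had been cut. The 5 control glands were 3 contralateral glands at the same time, 1 sham-operated gland at 7 days and 1 normal unoperated gland. The labels name no strain, sex or age. Titles and descriptions disagree about the side of the 3 contralateral glands, and the titles were followed. The labels tie no gland to an animal, so the p-values reflect gland-to-gland spread that may be technical. Contralateral glands may share animals with denervated glands, and the main tests treat all 10 glands as independent.

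The nerve that was cut carries the parasympathetic supply of the lacrimal gland, and acetylcholine is its main transmitter. Chrm1 and Chrm3 encode receptors that act through Gq proteins and phospholipase C to release calcium, the signal for fluid and protein secretion, and Chrm3 is the main muscarinic receptor of lacrimal acinar cells. Chrm2 encodes a receptor that acts through Gi proteins to lower cyclic AMP and is known from smooth muscle, heart and nerve endings. Ache encodes the enzyme that breaks down acetylcholine at cholinergic synapses.

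Values are the deposited linear intensities, which had been brought to a common level across arrays, as their trimmed means show. Before log2 was taken, any intensity under 156.2, the 20th percentile over all arrays, was raised to this floor, so that the size, and near 0 the sign, of a difference involving floored values depends on the floor. Of the 90 member values 21 lay at or under the floor, and 5 of the 9 probe sets passed the filter on dim probe sets. The water channel Aqp5, a marker of lacrimal acini, was bright in every gland, with 7292 to 14453.5 in denervated and 4147 to 16469.5 in control glands at 1 of its probe sets. Across probe sets, pairs of arrays correlated in log2 intensity at 0.715 to 0.912. Contralateral 1, the sham gland and denervated 1 stood apart from the other arrays in earlier work on these data, and results are given without them where that matters. The share of probe sets at or under the floor was 15.0%, 23.8%, 24.4%, 26.5% and 18.1% in denervated 1 to 5, against 12.8% to 22.5% in control glands. In these bulk samples fewer cells of a type and less RNA per cell cannot be told apart.

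Chrm3 was bright on every array and close between denervated and control glands at its probe set M16407_at. This probe set had intensities of 4859, 3412, 4372, 4309 and 3182 in denervated 1 to 5. It had 4884, 5387 and 3607 in contralateral 1 to 3, 4334 in the sham gland and 4098 in the unoperated gland. The groups overlapped, and the lowest gland, denervated 5, was still at the 81.9th percentile of its array. Mean log2 intensity was 11.96 ± 0.26 (SD, n = 5) in denervated glands, against 12.11 ± 0.22 (SD, n = 5) in controls, a difference of -0.15 ± 0.23 (SE). The 95% interval of that log2 difference ran from -0.64 to 0.34 (limma adjusted p = 0.848), which leaves room for a lower as well as a slightly higher level after the nerve was cut. The order of mean log2 intensity was contralateral (12.16), then unoperated with sham (12.04), then denervated glands (11.96), and no neighbours in this order differed by more than the SD within the denervated or contralateral glands. The SD of the unoperated and sham glands was smaller than these differences, at 0.06, but rests on n = 2.

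The spread of this Chrm3 probe set between glands was small for its level. Its SD of log2 intensity over the 10 glands was 0.24, against a median of 0.48 among 643 other probe sets whose mean log2 intensity lay within 0.5 of its own, of which 4.20% had a smaller SD. The other 8 probe sets had SDs of 0.84 to 1.03, between the 29.6th and the 70.1th percentile of probe sets at their own level. The SE of its denervation difference was 0.23, against 0.43 to 0.65 for the others.

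**Figure D1:**
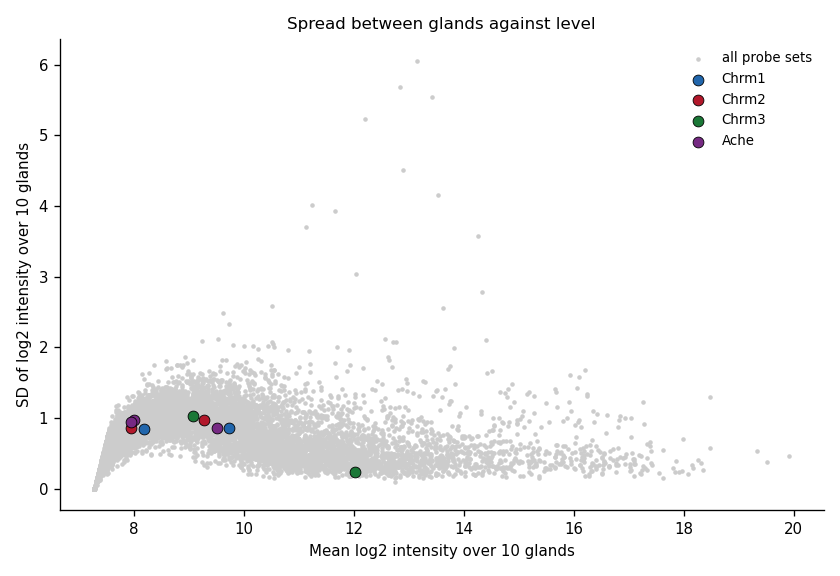
Each point is a probe set, with its mean log2 intensity over the 10 glands on the horizontal axis and the SD of log2 intensity over the same glands on the vertical axis. Grey points are all 8740 probe sets and coloured points the 9 described here. The Chrm3 probe set M16407_at lies at a mean of 12.03 and an SD of 0.24, at the lower edge of the cloud, while the other 8 have SDs of 0.84 to 1.03.

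The second Chrm3 probe set, AB017656_s_at, varied more between glands. It had 1000.1, 510.7, 974.1, 736.4 and 169.8 in denervated 1 to 5. It had 939.8, 918.0 and 737.6 in contralateral 1 to 3, 345.8 in the sham gland and 73.9, under the floor, in the unoperated gland. The 3 contralateral glands lay close together and above both glands without nerve section. Denervated glands averaged 9.16 ± 1.06 (SD, n = 5) and control glands 8.99 ± 1.12 (SD, n = 5) on the log2 scale, a difference of 0.17 ± 0.65 (SE, limma adjusted p = 0.944). Denervated minus contralateral glands gave -0.58 ± 0.65 (SE, limma adjusted p = 0.861), and -0.14 without denervated 5. Contralateral minus unoperated and sham glands gave 1.89 ± 0.82 (SE) for this Chrm3 probe set, with an unadjusted p of 0.0381 and an adjusted p of 0.967 from limma. An unadjusted p under 0.05 in this direction was found for 1.52% of tested probe sets. Its contralateral and other control glands did not overlap, as was the case, higher in contralateral glands, for 6.83% of all tested probe sets. At M16407_at the same Chrm3 contrast was 0.11 ± 0.34 (SE, limma adjusted p = 0.982), so the pattern at AB017656_s_at did not appear at that probe set.

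Chrm2 had lower intensities in most denervated glands at both of its probe sets, without passing the test. At AB017655_s_at it had 1599.8, 342.8, 440.3, 450.3 and 44.8 in denervated 1 to 5. The control glands were close together, with 819.7, 885.7 and 1056.2 in contralateral 1 to 3, 1012.1 in the sham gland and 665.4 in the unoperated gland. Denervated 2, 3, 4 and 5 lay below every control gland, and denervated 1 lay above every control gland. Such a split, with 4 denervated glands below and 1 above all controls, was seen in 0.850% of the tested probe sets, and at least 4 denervated glands below all controls in 5.43%. Both counts follow the pattern already seen at this probe set, so neither share measures how unusual Chrm2 is. The coefficient of variation of Chrm2 intensity at this probe set was 103% among denervated glands and 17.6% among control glands.

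The mean log2 intensity of Chrm2 at AB017655_s_at was 8.79 ± 1.21 (SD, n = 5) in denervated glands, against 9.78 ± 0.27 (SD, n = 5) in controls. The log2 difference was -0.99 ± 0.56 (SE), a 1.98-fold lower level, with a 95% interval of -2.19 to 0.22 (limma adjusted p = 0.592). An exact two-sided permutation test of this Chrm2 difference gave p = 0.119. Without denervated 1, the gland above all controls, the log2 difference was -1.45 (limma adjusted p = 0.158). Leaving out this array also raised the number of probe sets with a limma adjusted p under 0.05 to 69, against 0 with it. Without the 3 arrays that stand apart the difference was -1.41 for Chrm2 (limma adjusted p = 0.396). A further fit, added once values had been seen, blocked the arrays in 3 sets, of which denervated 2 and 5 were 1. That set holds no control gland, so its glands add nothing to the difference, which rests on denervated 1, 3 and 4. The fit gave a Chrm2 difference of -0.31 (limma adjusted p = 0.967).

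The other Chrm2 probe set, J03025_at, lay near the floor and did not pass the dim filter. It had 38.0, 275.8, 75.6, 27.0 and 154.4 in denervated 1 to 5. It had 633.9, 108.1 and 403.5 in contralateral 1 to 3, 191.6 in the sham gland and 670.8 in the unoperated gland. Only denervated 2 was above the floor in the denervated group, and only contralateral 2 was under it in the control group. In a fit with no dim filter the log2 difference of Chrm2 at J03025_at was -0.99 ± 0.44 (SE), with an unadjusted p of 0.0443 and an adjusted p of 0.593 from limma, and the exact permutation test gave p = 0.0873. With most denervated glands at the floor the size of this difference depends on the floor, and over the alternatives run it was -1.43 to -0.60. The 2 Chrm2 probe sets ordered the glands differently: denervated 1 was the highest of the 10 glands at AB017655_s_at and under the floor at J03025_at, and denervated 5 was the lowest at AB017655_s_at.

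**Figure D2:**
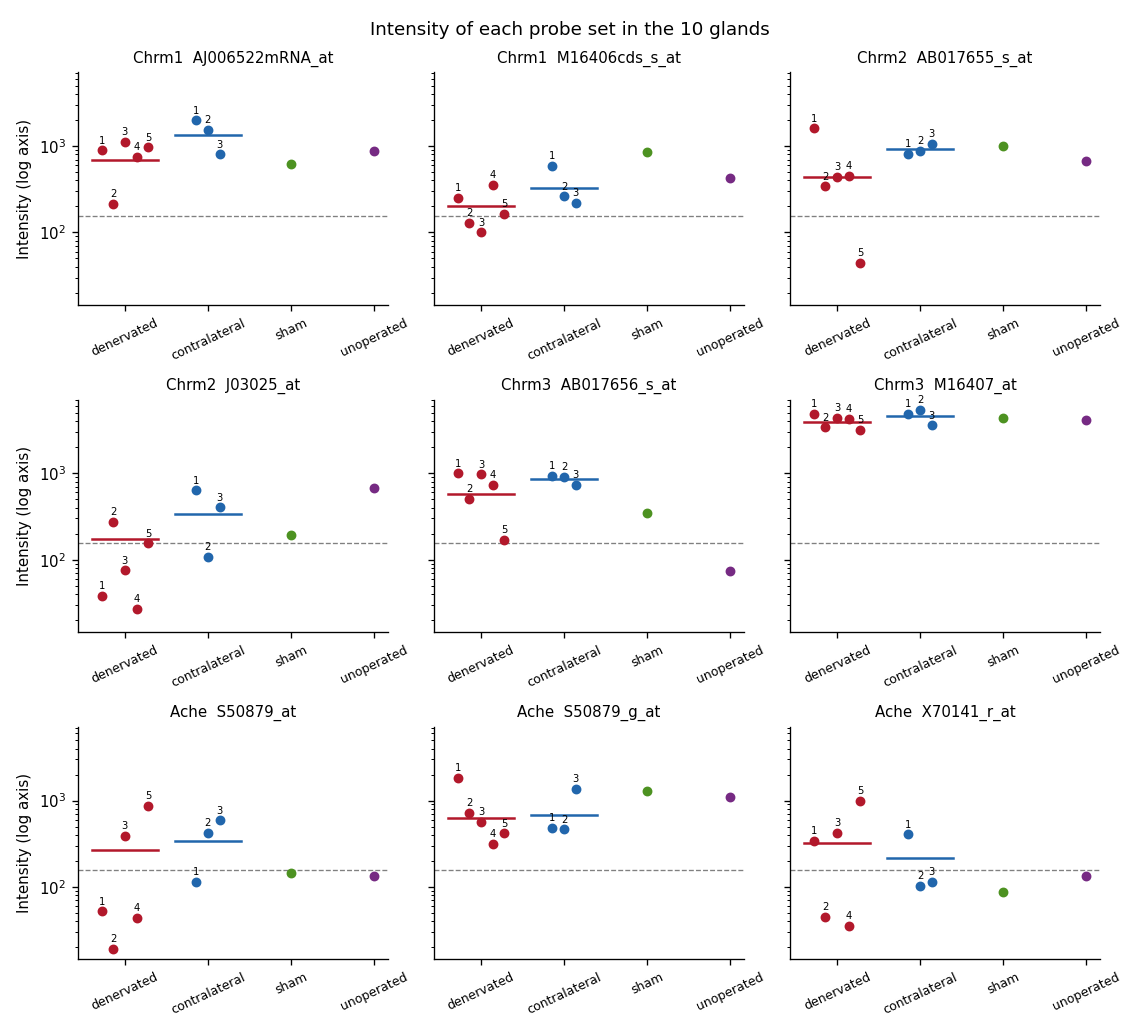
Intensity on a log axis of the 9 probe sets in denervated, contralateral, sham-operated and unoperated glands, with 1 panel for each probe set. Points are single glands, numbered as in the labels, horizontal lines are the antilog of the mean log2 intensity after the floor in the denervated and contralateral glands, and the dashed line is the floor of 156.2. Chrm3 at M16407_at stays between 3182 and 5387 in every gland, while Chrm2 at AB017655_s_at has 4 denervated glands below and 1 above all control glands.

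Chrm1 also had lower mean levels in denervated glands at both probe sets, again without passing. At AJ006522mRNA_at it had 894.5, 214.5, 1128, 747.3 and 965.6 in denervated 1 to 5. It had 1989, 1537 and 805.1 in contralateral 1 to 3, 617.6 in the sham gland and 886.2 in the unoperated gland. Contralateral 1 and 2 were the highest glands, denervated 2 was the lowest, and the remaining 7 lay between 617.6 and 1128. Mean log2 intensity was 9.43 ± 0.97 (SD, n = 5) in denervated glands, against 10.05 ± 0.70 (SD, n = 5) in controls, a difference of -0.62 ± 0.53 (SE, limma adjusted p = 0.723). Without denervated 2 the Chrm1 difference was -0.20 (limma adjusted p = 0.937). The denervated mean was nearly the same as that of the unoperated and sham glands, with a log2 difference of -0.10 ± 0.69 (SE, limma adjusted p = 0.970), and it was lower than the contralateral mean by -0.97 ± 0.60 (log2 difference ± SE, limma adjusted p = 0.760), or by -0.55 without denervated 2.

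The second Chrm1 probe set, M16406cds_s_at, did not pass the dim filter. It had 250.5, 129.8, 100.1, 356.3 and 163.8 in denervated 1 to 5, of which denervated 2 and 3 were under the floor. It had 593.1, 263.3 and 220.6 in contralateral 1 to 3, 849.8 in the sham gland and 423.9 in the unoperated gland. Denervated 2, 3 and 5 lay below all controls, and all 5 denervated glands lay below the unoperated and sham glands. This was the case for 9.10% of tested probe sets, which do not include this dim one. In the fit with no dim filter the log2 difference of this Chrm1 probe set was -1.02 ± 0.43 (SE), a 2.03-fold lower level, with a 95% interval of -1.98 to -0.07, an unadjusted p of 0.0379 and an adjusted p of 0.593 from limma. The exact permutation test gave p = 0.0476, the lowest of 9 such tests, where the smallest p the design allows is 0.00794. This Chrm1 p was over the threshold with quantile normalization (exact p = 0.0635), with median scaling (exact p = 0.0714) and without any 1 of 7 of the 10 glands, as given in the closing section.

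Ache gave no common direction over its 3 probe sets. At S50879_g_at, which passed the dim filter, it had 1842, 721.6, 570.6, 313.7 and 416.4 in denervated 1 to 5. It had 484.8, 464.4 and 1356 in contralateral 1 to 3, 1300 in the sham gland and 1085 in the unoperated gland. Denervated 1 was the highest of the 10 glands, denervated 4 and 5 were the lowest, and the groups overlapped. Mean log2 intensity was 9.30 ± 0.98 (SD, n = 5) in denervated glands, against 9.72 ± 0.77 (SD, n = 5) in controls, a difference of -0.42 ± 0.55 (SE, limma adjusted p = 0.823). The Ache difference from the contralateral glands was -0.10 ± 0.64 (SE), and from the unoperated and sham glands -0.92 ± 0.73 (SE), with limma adjusted p of 0.986 and 0.688.

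The other Ache probe sets were at or under the floor in 6 of 10 glands each. S50879_at, named after the same sequence as S50879_g_at, had 52.2, 19.3, 389.4, 44.2 and 865.3 in denervated 1 to 5, against 113.6, 421.9 and 588.9 in contralateral 1 to 3, 143.6 in the sham gland and 132.5 in the unoperated gland. X70141_r_at had 340.0, 45.4, 420.1, 35.5 and 992.3 in denervated 1 to 5, against 406.6, 102.0 and 115.1 in contralateral 1 to 3, 87.4 in the sham gland and 134.5 in the unoperated gland. Denervated 5 was the highest gland at both, whereas at S50879_g_at it was the second lowest. In the fit with no dim filter the log2 differences of Ache were 0.09 ± 0.59 (SE, limma adjusted p = 0.976) at S50879_at and 0.77 ± 0.52 (SE, limma adjusted p = 0.712) at X70141_r_at. The unoperated and sham glands were both under the floor at these 2 probe sets. Any difference from them depends on the floor, and none is given here.

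**Figure D3:**
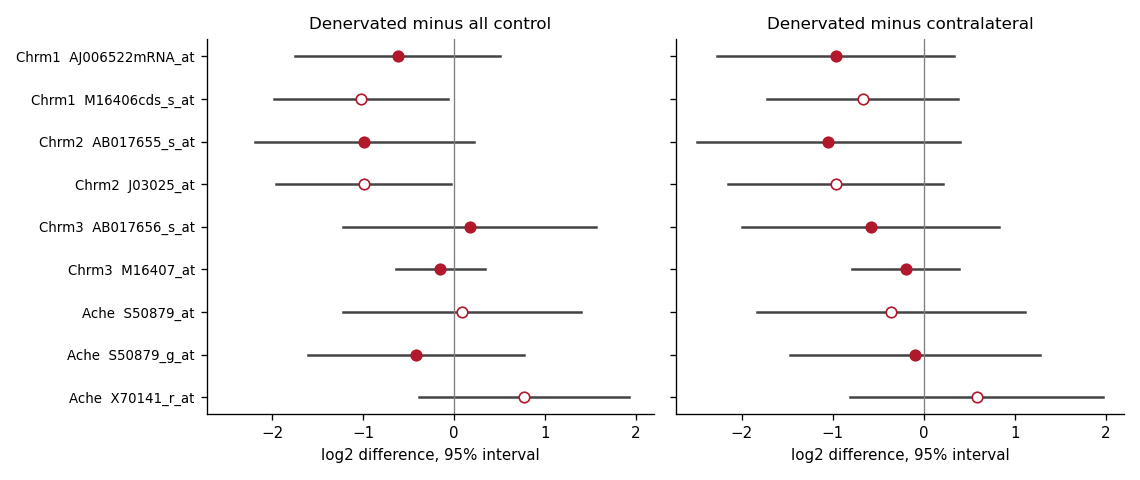
Log2 difference of denervated minus all control glands (left) and denervated minus contralateral glands (right) for the 9 probe sets, with 95% intervals from limma. Filled points passed the dim filter, and open points come from the fit with no dim filter. The shortest interval is that of Chrm3 at M16407_at, -0.64 to 0.34 in the left panel, and only Chrm1 at M16406cds_s_at and Chrm2 at J03025_at have intervals there that leave out 0, before adjustment over all probe sets.

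None of the members passed the test in denervated against all control glands: 0 of the 5 that passed the dim filter had an adjusted p under 0.05 by limma, as did 0% of all 6118 tested probe sets, and 0 of the 5 had an unadjusted p under 0.05, against 9.68% of all tested. Of the 4 dim members 2 were lower at an unadjusted p under 0.05 in the limma fit with no dim filter, where this held for 4.36% of 8740 probe sets. Denervated glands had the lower mean at 4 of the 5 members that passed the filter against 55.4% of all tested, and at 2 of the 4 that did not, against 55.9% of all 8740. The groups overlapped at all 9 members, and they did not overlap at 1.67% of all tested, which do not include the 4 dim members. In denervated against contralateral glands 0 members had an adjusted p under 0.05, as did 0% of all tested. In the other contrasts, contralateral against unoperated and sham glands and denervated against unoperated and sham glands, 0 members passed as well. In these contrasts 0% of the 6118 probe sets passed, and with no dim filter 0.0801% did in the first and 0.149% in the second. These contrasts share glands, and the values for each member stand beside each other above.

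Probe sets of the same gene did not track each other closely across the 10 glands, which all rest on the same 10 arrays. Pearson correlations of log2 intensity were 0.59 between the Chrm3 probe sets, 0.26 for Chrm1 and 0.20 for Chrm2. They were 0.46, -0.22 and -0.27 among the 3 Ache probe sets. Among 1823 pairs of named tested probe sets that share a gene and are at the floor in at most 4 glands, the median correlation was 0.34, with quartiles of 0.02 and 0.65. The Chrm3 pair meets these conditions and was near the upper quartile. The Chrm1, Chrm2 and Ache pairs each hold a dim probe set, so their correlations cannot be set against these quartiles. The suffixes _s_at, _g_at and _r_at mark probe sets made under relaxed rules of uniqueness or probe choice. What each probe set detects besides its named gene was not tested.

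For the members at the floor in at most 4 glands, the genes whose pattern over the 10 glands was most like theirs were found among 4988 or 4989 named probe sets, so high values are also reached by chance and no test is given. For Chrm2 at AB017655_s_at they were Mgat3, a glycosyltransferase of the Golgi (r = 0.97), Mgst3, a microsomal glutathione transferase (r = 0.95), and P4hb, a disulfide isomerase of the endoplasmic reticulum (r = 0.94), and 23 candidates had r above 0.9. For Chrm3 they were Pisd, Prkacb and Ivd at M16407_at (r = 0.92, 0.90 and 0.88) and Cyp2j3, Slc12a4 and Ccnd3 at AB017656_s_at (r = 0.93, 0.91 and 0.88). For Chrm1 they were Pacs1, Aph1a and Slc28a1 at AJ006522mRNA_at (r = 0.91, 0.91 and 0.85) and Socs7, Papola and RT1-Ha at M16406cds_s_at (r = 0.94, 0.93 and 0.92). For Ache at S50879_g_at they were Kctd13, Scg5 and Mtnr1a (r = 0.95, 0.93 and 0.87). No gene was named for more than 1 of these 6 probe sets.

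The other genes of acetylcholine signalling were taken as 3 lists. Of 24 other cholinergic genes, 20 were on the array with 25 probe sets, and 17 of these probe sets passed the dim filter. Denervated glands were higher at 5 and lower at 12 of them, with a median log2 difference of -0.14, against -0.08 over all tested probe sets. By limma 0 passed, and 0 had an unadjusted p under 0.05, which 5.02% of all tested probe sets had as higher and 4.66% as lower. The lowest p were those of Chrnb4, a nicotinic receptor subunit of autonomic ganglia, with log2 differences of -0.62 ± 0.34 and -0.84 ± 0.71 (SE) at 2 probe sets, and of Chrm4, another Gi-coupled muscarinic receptor, with -0.70 ± 0.63 (SE). A dim Chrm4 probe set, at the floor in 4 denervated and 5 control glands, gave 0.07 ± 0.09 (SE) with no dim filter. At U42976_at Chrnb4 had a median intensity of 1169 (972 to 1965) in denervated and 2235 (1320 to 2891) in control glands, and the groups overlapped. Chat encodes the enzyme that makes acetylcholine, and Slc18a3 the transporter that loads it into vesicles. Their RNA in the gland differed by 0.20 ± 0.65 for Chat and by -0.33 ± 0.39 and -0.33 ± 0.73 for the 2 probe sets of Slc18a3 (log2 difference ± SE). Chrm5, the remaining Gq-coupled muscarinic receptor, differed by 0.37 ± 0.61 (SE).

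Gq and calcium effectors, which act downstream of Chrm1 and Chrm3, had 28 tested probe sets of 17 genes, of which 14 were higher and 14 lower after denervation, with a median log2 difference of 0.00. By limma 0 passed over all probe sets, and an unadjusted p under 0.05 was found for 1 higher and 1 lower. Over all tested probe sets these shares were 5.02% higher and 4.66% lower. The lower 1 was Plcb2, a phospholipase C activated by G proteins, at -1.25 ± 0.58 (SE), with a median intensity of 255.3 (130.0 to 1093) in denervated and 656.6 (589.2 to 1307) in control glands. The higher 1 was the protein kinase C gene Prkcb at 1.12 ± 0.52 (SE), with 531.6 (386.9 to 615.7) in denervated and 176.4 (75.5 to 559.8) in control glands, while its second tested probe set gave -0.54 ± 0.70 (SE). The potassium channel Kcnma1, which calcium opens in secretory cells, differed by -0.64 ± 0.39 (SE), and by -0.37 ± 0.53 (SE) at its other tested probe set. Its dim probe sets gave 0.28 ± 0.26 and 0.24 ± 0.66 (SE) in the fit with no dim filter. The calcium release channel Itpr3 was bright and, like Chrm3 at M16407_at, close between the groups, with log2 differences of 0.04 ± 0.25 and 0.24 ± 0.20 (SE) at 2 probe sets.

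Gi effectors and receptor regulators, which act downstream of Chrm2 or switch muscarinic receptors off, had 34 tested probe sets of 26 genes, of which 14 were higher and 20 lower after denervation, with a median log2 difference of -0.19. By limma 0 passed over all probe sets, and an unadjusted p under 0.05 was found for 1 higher and 2 lower. Over all tested probe sets these shares were 5.02% higher and 4.66% lower. Grk2, a kinase that desensitises activated receptors, differed by -1.77 ± 0.61 (SE, limma adjusted p = 0.437), with a median intensity of 355.4 (103.3 to 1439) in denervated and 1320 (1187 to 1811) in control glands. Its other probe set gave -0.38 ± 0.59 (SE). Grk1, the receptor kinase known from photoreceptors, differed by -1.42 ± 0.57 (SE, limma adjusted p = 0.459), and Rgs18, a regulator of G proteins known from blood cells, by 1.42 ± 0.66 (SE, limma adjusted p = 0.509). Members of these lists share arrays and floors with the muscarinic receptors, and nothing particular to a list can be read from its counts.

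**Figure D4:**
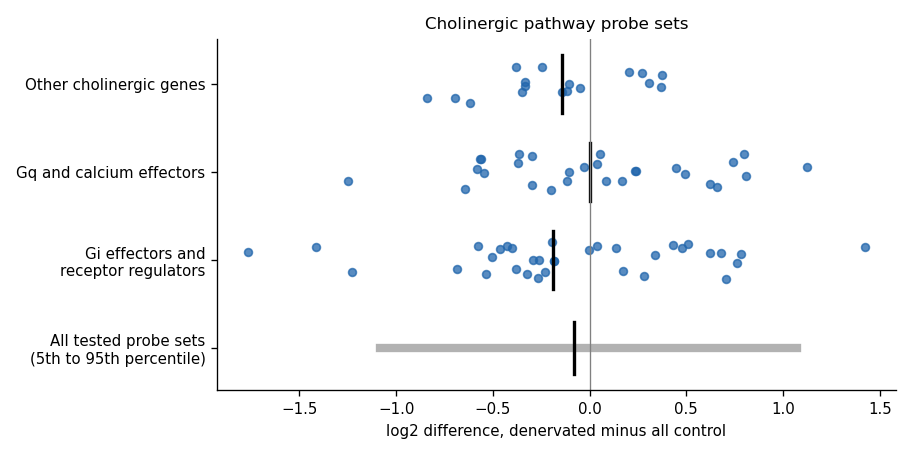
Log2 difference of denervated minus all control glands for the tested probe sets of the 3 pathway lists, with 1 blue point for each probe set and a black bar at each list's median. The grey bar spans the 5th to the 95th percentile of all 6118 tested probe sets, -1.08 to 1.07. The medians of -0.14, 0.00 and -0.19 lie near that of all tested probe sets, -0.08.

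Of the marker probe sets of 7 cell types or tissues, 0 had an adjusted p under 0.05 by limma, and the counts of each list stand against 44.6% higher and 55.4% lower over all tested probe sets. At an unadjusted p under 0.05 by limma, 5.02% of all tested probe sets were higher and 4.66% lower. Of 11 tested probe sets of smooth muscle and myoepithelial genes, cells in which Chrm2 and Chrm3 are also known, 10 were higher in denervated glands, 7 of them at an unadjusted p under 0.05, and the summed intensity of all 13 on the array ran from 19595 to 130957 in denervated and from 15311 to 48090 in control glands. It was highest in denervated 2 and 5, where Chrm2 at AB017655_s_at was lowest. At the other Chrm2 probe set, J03025_at, these 2 were instead the highest of the denervated glands, at 275.8 and, under the floor, 154.4. Of 13 tested probe sets of nerve and Schwann cell genes, a possible source of Ache and Chrm2, 9 were lower and 4 higher in denervated glands. By limma an unadjusted p under 0.05 was found for 1 lower and 1 higher. Both were probe sets of the gene Pmp22, at -1.33 ± 0.59 and 0.88 ± 0.33 (log2 difference ± SE). The summed intensity of all 24 ran from 7955 to 16510 in denervated and from 8363 to 13254 in control glands, with denervated 1 and 5 highest. In denervated 1, 1 of these 24 nerve probe sets was at or under the floor, against 6 to 16 in the other 9 glands. Of 8 tested probe sets of salivary gland genes, 8 were lower in denervated glands, 4 of them at an unadjusted p under 0.05. In the fit with no dim filter, dim Prb1 and Prpmp5 gave log2 differences of 0.04 ± 0.14 and 0.46 ± 0.56 (SE). Summed intensity over 10 salivary probe sets ran from 7139 to 101998 in denervated and from 23918.5 to 242130 in control glands. Smr3a, with 33.6 to 85972.4 in denervated and 1671 to 229313.5 in control glands, makes up much of the highest sums. For blood cells, 3 of 6 probe sets were higher and 0 had an unadjusted p under 0.05. Summed intensities of blood cell probe sets were 48393 to 376366 in denervated and 30997 to 180414 in control glands, denervated 2 and 5 being highest. The Hbb and Hbb-b1 probe sets, which reached 253653.4 and 124566.6 in denervated glands, make up much of that sum. For skeletal muscle, 5 of 9 tested probe sets were higher and 4 lower, and 0 had an unadjusted p under 0.05. Summed intensities over 10 skeletal muscle probe sets were 2782 to 23078 in denervated and 4181 to 18670 in control glands. Of 8 tested probe sets of macrophage genes, 8 were higher in denervated glands, 5 of them at an unadjusted p under 0.05. In the fit with no dim filter, dim probe sets of Aif1, Csf1r and C1qc gave -0.36 ± 0.42, 0.06 ± 0.38 and 0.01 ± 0.32 (log2 difference ± SE). Summed intensities over 11 macrophage probe sets were 39330 to 67400.4 in denervated and 24083 to 52474 in control glands. A Lyz2 probe set that is also in the secretory list, with 24274 to 49874 in denervated and 13741 to 39267 in control glands, makes up much of that sum. Of 17 tested probe sets of secretory cell genes, 13 were higher in denervated glands, 6 of them at an unadjusted p under 0.05. Summed intensities over 19 secretory probe sets were 565982 to 2347380 in denervated and 455781 to 2435020 in control glands. Pip, which reached 1474252 in denervated glands, and Dnase1, which reached 721536.6 in control glands, make up much of the highest sums. The part of these cell types, and of the share of probe sets at the floor, in the levels of the muscarinic receptors and Ache was not tested.

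**Figure D5:**
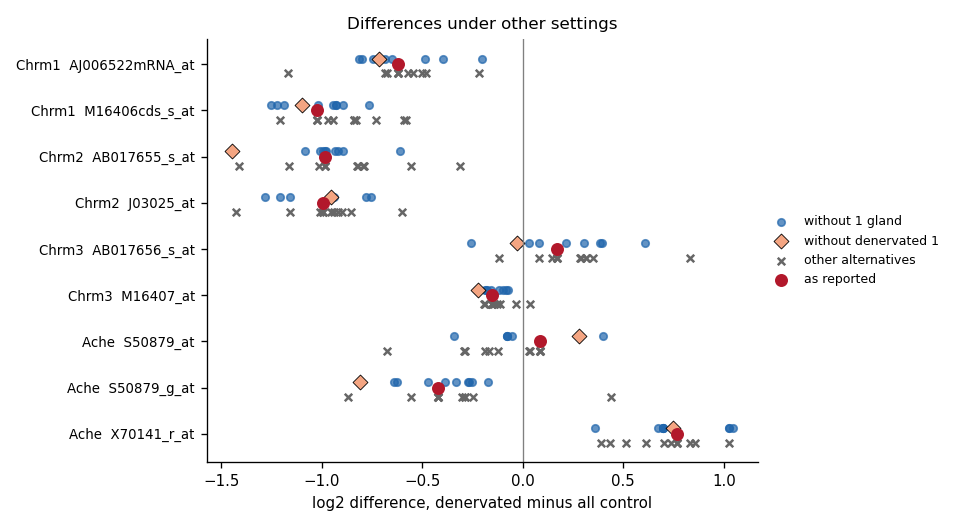
Log2 difference of denervated minus all control glands for the 9 probe sets as reported (red), without each single gland (blue, with the value without denervated 1 as a diamond) and under the other alternatives (grey crosses). The 4 probe sets of Chrm1 and Chrm2 stay below 0 throughout, from -1.45 to -0.20, and Ache at X70141_r_at stays above 0. Both probe sets of Chrm3 and the other 2 of Ache lie on both sides of 0, Chrm3 at M16407_at and Ache at S50879_g_at in 1 alternative each.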

How the data were processed

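The authors deposited linear intensities, 1 for each of 8799 probe sets and 10 arrays, scaled to a common level as the values show (means trimmed by 2% at each end were 2505 to 2507). The software behind them is not given in the sources used here, and detection calls were not used. The 59 array controls were left out. Intensities were floored at the 20th percentile and log2 was taken, and probe sets with a mean log2 intensity over the 30th percentile, 6118, were tested. Members under that filter come from the fit over all 8740. Symbols came from the platform annotation, updated through gene IDs to RefSeq GRCr8 names (6985 of 7006 single-symbol probe sets matched). Differences were tested with limma 3.58.1 in R 4.3.3 (variance trend, two-sided, Benjamini-Hochberg over all probe sets, threshold 0.05), with denervated against all control glands in 2 classes and the other contrasts in 3. The steps were tested on simulated data. Precision is limited by the 10 arrays.

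The members, lists and tests were chosen with earlier results of these data known. Genes named are all member probe sets, the 3 probe sets with the smallest p in each pathway list and the 3 most correlated genes of a member. Chat, Slc18a3, Chrm5, Itpr3 and Aqp5 were named for their role after values were seen. Lyz2, Pmp22, Pip, Dnase1, Smr3a, Hbb, Hbb-b1, Prb1, Prpmp5, Aif1, Csf1r and C1qc were named from the marker lists, also after values were seen. Alternatives changed the scaling (quantile, median), the floor, the dim filter, the variance trend and array weights, added blocks, or left out glands. Figures were drawn with matplotlib 3.10.9.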

Additional observations from a re-analysis of the deposited data

Results flagged for a closer look

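Of 18 groups checked, 9 probe sets in 5 denervated and 5 control glands each, 3 held a gland far from the others. Chance gives about 1 in 20 groups, but this rate does not apply to 2 of the 3, where the other 4 glands were set to the floor and any value above it stands apart whatever its size. Chrm1 at AJ006522mRNA_at was lowest in denervated 2, at an intensity of 214.5, with the gap to the next gland taking 0.752 of the log2 range. Chrm2 at J03025_at was highest in denervated 2, at 275.8, the other 4 denervated glands being at the floor. Ache at X70141_r_at was highest among control glands in contralateral 1, at 406.6, the other 4 being at the floor.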

How the results depend on the processing

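No member passed the limma threshold over all probe sets under any alternative run, and the lowest adjusted p was 0.158, for Chrm2 at AB017655_s_at without denervated 1. In denervated minus all control glands, Chrm1 and Chrm2 stayed lower at all 4 probe sets under 22 alternatives each, and Ache at X70141_r_at stayed higher. Median scaling moved the median of all tested differences by 0.12 in denervated minus all control glands, by 0.31 in denervated minus unoperated and sham glands and by 0.33 in contralateral minus unoperated and sham glands. All values are log2 differences, no cause of a change was tested, and values near the floor limit what dim probe sets can show.

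The replicate block could be fitted only for denervated and contralateral 1 to 3, so it gives 1 value for both contrasts with denervated glands and leaves out the other 4 glands as well. Deviations of same-numbered glands from their group means correlated at 0.49, 0.04 and 0.16, so the numbers were not taken as pairs. With the replicate block Chrm3 at AB017656_s_at gave -0.12, and Ache -0.68 at S50879_at and 0.44 at S50879_g_at. It called no member. How much of these changes comes from the block and how much from the glands left out was not tested.

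Ache at S50879_at changed sign in denervated minus all control glands, to -0.29 with the floor at the 10th percentile, -0.19 with array weights, -0.17 without contralateral 1, sham and denervated 1, -0.12 with these 3 as a block and -0.29 with 3 sets of arrays as a block, a fit added after the data were seen. In that fit denervated 2 and 5 form a set with no control gland, so the denervated side rests on denervated 1, 3 and 4. With 3 sets Chrm3 at M16407_at gave 0.036, and 0.12 against unoperated and sham glands. Against contralateral glands 3 sets gave 0.058 for Chrm3 at AB017656_s_at and 0.037 for Ache at S50879_g_at. Chrm1 at AJ006522mRNA_at, denervated minus unoperated and sham glands, gave 0.24 with quantile normalization, 0.22 with median scaling, 0.0018 with the 3 arrays as a block and 0.32 with 3 sets. Median scaling gave 0.24 for Chrm3 at M16407_at in that contrast. Both sign changes under median scaling there are about the size of the shift of the median of all probe sets. In contralateral minus unoperated and sham glands, Chrm2 at J03025_at gave 0.20 with quantile normalization and 0.18 with median scaling, and Ache at X70141_r_at gave 0 without the 3 arrays. This Ache value only reflects that all glands compared were at the floor.

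In exact permutation tests Chrm1 at M16406cds_s_at lost its call with quantile normalization (-0.97), median scaling (-0.95), the floor at the 30th percentile (-0.59) and without the 3 arrays (-0.58). Chrm2 at AB017655_s_at passed without the 3 arrays (-1.41, exact p = 0.0286), which without denervated 1 can only be the smallest p of that design.

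Leaving out each gland in turn gave -1.25 to -0.77 for Chrm1 at M16406cds_s_at (exact p = 0.0317 to 0.0952), losing the call without contralateral 1, the unoperated gland, the sham gland or denervated 1, 2, 3 or 5. It gave -1.45 to -0.61 for Chrm2 at AB017655_s_at (exact p = 0.00794 to 0.222), which passed without denervated 1, where the p can only be the smallest the design allows, and -1.28 to -0.76 for Chrm2 at J03025_at (exact p = 0.0238 to 0.206), which passed without contralateral 2. It gave -0.26 to 0.61 for Chrm3 at AB017656_s_at, below 0 without the unoperated gland or denervated 1 or 3, and -0.34 to 0.40 for Ache at S50879_at, below 0 without contralateral 1, the unoperated gland, the sham gland or denervated 3 or 5. Against contralateral glands it gave -0.78 to -0.14 for Chrm3 at AB017656_s_at, -1.34 to -0.55 for Chrm1 at AJ006522mRNA_at, -0.92 to 0.041 for Ache at S50879_at and -0.48 to 0.41 at S50879_g_at. In denervated minus unoperated and sham glands Chrm1 at AJ006522mRNA_at gave -0.36 to 0.32. In contralateral minus unoperated and sham glands the ranges were -0.15 to 0.46 for Chrm2 at AB017655_s_at, -0.97 to 0.84 at J03025_at, -0.0058 to 0.28 for Chrm3 at M16407_at and 0 to 0.69 for Ache at X70141_r_at. The unoperated and sham glands were at the floor at X70141_r_at, so this Ache range depends on the floor.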
